A study of Rattus norvegicus with 12 samples.

Results

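GABA, the main inhibitory transmitter of the cortex, was followed here through 8 genes, chosen by their Ensembl identifiers as genes that make and package GABA or that mark classes of inhibitory interneurons. All 8 were found among the 43206 genes of the deposited files. They are Gad1 (ENSRNOG00000000007), Gad2 (ENSRNOG00000018200), Slc32a1 (ENSRNOG00000015393), Pvalb (ENSRNOG00000006471), Sst (ENSRNOG00000001837), Npy (ENSRNOG00000046449), Vip (ENSRNOG00000018808) and Cck (ENSRNOG00000019321). The 12 libraries were made from total RNA of the prefrontal cortex of 28-day-old SD rats (postnatal day 28): 4 from an acupuncture group, 4 from a hypoxic-ischemic brain damage (HIBD) model group and 4 from a normal group. For the acupuncture group, a treatment but no injury is labelled; that these rats had HIBD is taken from the series title. Each library is called by the number its label carries, and no label says that libraries came from separate animals, so each p-value reflects only how much these libraries vary, which may be technical. The sex, the side of the brain, and how the damage and the acupuncture were given are not stated in the labels.

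Gad1 and Gad2 encode the glutamate decarboxylases GAD67 and GAD65, which make GABA from glutamate. Slc32a1 encodes the vesicular transporter that loads GABA into synaptic vesicles, and nearly every inhibitory neuron of the forebrain uses these genes. Cortical interneurons divide into classes named after what else they make: the calcium-binding protein parvalbumin (Pvalb) of fast-spiking cells, somatostatin (Sst), often with neuropeptide Y (Npy), and vasoactive intestinal peptide (Vip). Cholecystokinin (Cck) marks another interneuron class but is also made by many cortical excitatory neurons. In RNA from whole tissue, fewer cells of a type and less RNA per cell cannot be told apart.

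Between libraries, some of the 8 genes formed a set that rose and fell together, and others a set that tended to run the other way. Gad1, Gad2 and Slc32a1 were low in all 4 acupuncture libraries and in HIBD model replicates 8 and 16, high in HIBD model replicates 2 and 18, and intermediate to high in the normal libraries. Pvalb, Vip and Cck tended to be high where the GABA genes were low. With the group means removed, 0 negative correlations between genes passed a permutation adjusted p of 0.05. Sst followed neither set closely over the 12 libraries, and for Npy this depended on the measure. No gene of the 8 passed an adjusted p of 0.05 between groups in the edgeR test of all genes, in which the split of the HIBD model group counts as spread.

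Upstream sequence is shown for the pair of genes whose levels followed each other most closely, Gad2 and Slc32a1. It is also shown for Sst, which did not follow them closely over the 12 libraries. Each run holds the 250 bases before the RefSeq start of the gene (build GRCr8), 5′ to 3′ on the gene's own strand, which is the plus strand for all 3. Gad2 is at chr17:89671468-89671717, Slc32a1 at chr3:167686995-167687244 and Sst at chr11:90461296-90461545. Capitals mark matches to the motifs searched.
Gad2: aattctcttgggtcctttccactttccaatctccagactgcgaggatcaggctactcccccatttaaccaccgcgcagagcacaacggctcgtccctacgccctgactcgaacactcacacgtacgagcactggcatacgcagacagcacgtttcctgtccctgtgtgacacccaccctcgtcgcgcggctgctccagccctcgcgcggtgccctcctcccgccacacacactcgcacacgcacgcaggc
Slc32a1: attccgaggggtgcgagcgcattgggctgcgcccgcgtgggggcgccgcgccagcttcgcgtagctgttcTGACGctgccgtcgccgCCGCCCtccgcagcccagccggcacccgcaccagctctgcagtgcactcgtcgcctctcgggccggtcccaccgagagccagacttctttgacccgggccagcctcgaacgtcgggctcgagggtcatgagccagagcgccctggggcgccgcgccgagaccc
Sst: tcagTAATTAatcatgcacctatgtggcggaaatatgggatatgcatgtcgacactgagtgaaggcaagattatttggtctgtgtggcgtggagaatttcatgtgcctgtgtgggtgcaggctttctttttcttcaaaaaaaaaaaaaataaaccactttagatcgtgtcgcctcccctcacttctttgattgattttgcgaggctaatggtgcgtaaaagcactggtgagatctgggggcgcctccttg
Matches were sought on both strands, in windows of 300 bases that also take in the first 50 bases after the start, for the cAMP response element TGACGTCA, its shorter core TGACG, the homeodomain core TAATTA, the TATA box core TATAAA and the GC box core GGGCGG. Over 33469 rat promoter windows of that length, these were found in 1.83%, 21.2%, 5.36%, 14.2% and 33.1%. Each full TGACGTCA also holds TGACG on both strands. The Gad2 window held none of the motifs. The Slc32a1 window held TGACG from base -180 to -176 and from base 27 to 31, counted from the start, and the GC box core from -163 to -158 on the other strand. In the Sst window the full TGACGTCA lay from base 3 to 10, just past the stretch shown, and TAATTA from -246 to -241. These positions count from the RefSeq start, and where transcription starts in this tissue was not tested. Base composition differed as well, with 63.7% G or C for Gad2 and 73.7% for Slc32a1, against 45.7% for Sst and a median of 51.7% over all windows. The windows of Gad1 and Npy had 67.7% each, that of Pvalb 60.7% and that of Vip 44.0%. The GC box core also lay in the windows of Gad1, Pvalb and Npy. TGACG also lay in those of Pvalb and Vip, and TATAAA in those of Gad1 and Vip. Whether the sequence goes with the levels was not tested. The RefSeq table held 7 of the 8 genes. For Gad1, Pvalb and Vip the start used was not the outermost RefSeq start of the gene, so their runs are not shown. The run of Npy, whose start was the outermost, is not shown either.

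Levels are given as FPKM, fragments per kilobase of transcript scaled to sequencing depth. Whether the deposited values are scaled by transcript length was not tested, so the order of different genes holds only on this scale. By estimated count the order was another. In acupuncture replicate 5, Sst had 97.0 FPKM and a count of 5873, against 44.5 FPKM and 145920 for Gad2. Over all 12 libraries Cck averaged 162 FPKM, Sst 108, Gad1 92.0, Gad2 74.0, Pvalb 41.4, Slc32a1 34.8, Npy 19.4 and Vip 15.5 FPKM. On this scale 255 genes had a higher mean than Cck and 4633 a higher one than Vip, of 35753 genes with a mean above 0. Neighbours in this order were not separated, since the ranges of every neighbouring pair overlapped over the 12 libraries. Cck lay above Sst in 10 libraries, Gad1 above Gad2 in 10, and Gad2 above Pvalb in only 6. Within groups the order differed: in the acupuncture libraries Pvalb (56.7 FPKM) stood beside Gad1 (56.0 FPKM), while in normal libraries Gad2 (105 FPKM) stood far above Pvalb (32.4 FPKM).

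**Figure D1:**
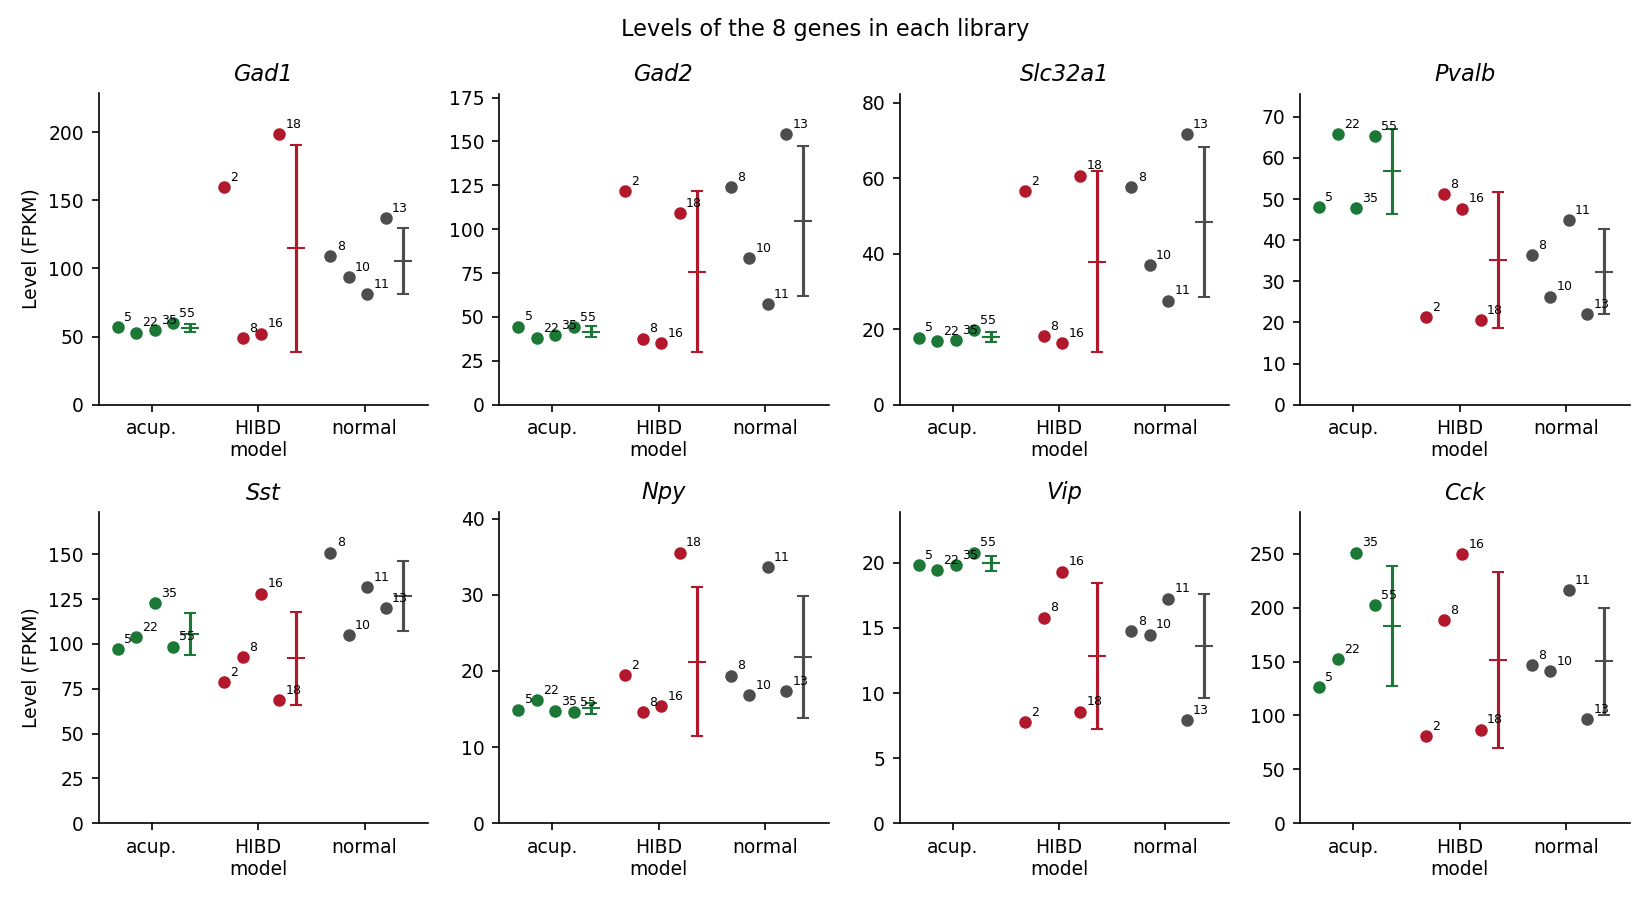
FPKM of each of the 8 genes in every library, with acupuncture, HIBD model and normal libraries from left to right; numbers are replicate numbers, and the bar beside each set of points is the mean ± SD of 4 libraries. For Gad1, Gad2 and Slc32a1 the acupuncture points sit close together and low, and the HIBD model points split into 2 high (replicates 2 and 18) and 2 low (8 and 16).

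Gad1, which makes most of the cell's GABA, had 56.7, 52.8, 54.6 and 59.7 FPKM in acupuncture replicates 5, 22, 35 and 55. It had 159.5, 49.0, 52.1 and 199 FPKM in HIBD model replicates 2, 8, 16 and 18, against 109, 93.8, 80.9 and 137 FPKM in normal replicates 8, 10, 11 and 13. Every acupuncture library lay below every normal library, as for 15.4% of all genes. The HIBD model libraries lay on both sides of the normal range. Gad2, the synaptic form of the enzyme, had 44.5, 38.1, 39.7 and 44.0 FPKM in the acupuncture libraries. The HIBD model libraries, in the same order, had 122, 37.6, 35.3 and 109 FPKM, and the normal libraries 124, 83.4, 57.4 and 154 FPKM. The ranges of acupuncture and normal libraries again did not overlap, and HIBD model replicates 8 and 16 fell below the lowest acupuncture library. Slc32a1, the vesicular transporter, had 17.8, 16.9, 17.2 and 19.8 FPKM in acupuncture libraries. It had 56.5, 18.2, 16.4 and 60.7 FPKM in HIBD model libraries, against 57.7, 36.9, 27.6 and 71.7 FPKM in normal libraries. The pattern was that of Gad2, and the ratio of Slc32a1 to Gad2 stayed between 0.399 and 0.557 in all 12 libraries while Gad2 itself ranged 4.37-fold.

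The ratio of Gad1 to Gad2 was less constant, from 0.881 to 1.82. It averaged 1.35 ± 0.0505 in acupuncture, 1.48 ± 0.243 in HIBD model and 1.08 ± 0.25 in normal libraries (SD, n = 4), and the highest ratio was that of HIBD model replicate 18. Gad1 had 4 transcript rows, of which ENSRNOT00000087712 held most of the level and ENSRNOT00000000008 nearly all of the rest. The share of ENSRNOT00000000008 was 24.4 ± 5.43% in acupuncture, 27.1 ± 11.1% in HIBD model and 25.1 ± 8.63% in normal libraries, with the 2 highest shares in HIBD model replicate 18 (43.4%) and normal replicate 10 (38.0%). These shares rest on the authors' assignment of reads to transcripts. The group means of the share lay within 1 SD of each other, and no test was made of it.

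Pvalb ran the other way. It had 48.0, 65.8, 47.7 and 65.3 FPKM in acupuncture libraries, 21.4, 51.2, 47.7 and 20.5 FPKM in HIBD model libraries and 36.4, 26.3, 44.8 and 22.0 FPKM in normal libraries. Every acupuncture library lay above every normal library, as for 6.62% of all genes. The 2 HIBD model libraries with high GABA genes, replicates 2 and 18, held the lowest Pvalb levels of the 12. The ratio of Gad2 to Pvalb was 0.753 ± 0.156 in acupuncture, 3.12 ± 2.76 in HIBD model and 3.71 ± 2.39 in normal libraries, with a range from 0.579 to 7.0 over all. The proportion of Gad2 to the parvalbumin marker thus varied from library to library.

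Among the peptide genes, Sst had 97.0, 104, 123 and 98.5 FPKM in acupuncture libraries, 78.6, 92.6, 128 and 68.6 FPKM in HIBD model libraries and 151, 105, 132 and 119.9 FPKM in normal libraries. It was the steadiest of the 8 genes over the 12 libraries, with a 2.20-fold range, and its groups overlapped. Npy had 14.9, 16.1, 14.8 and 14.5 FPKM in acupuncture libraries, 19.5, 14.5, 15.4 and 35.5 FPKM in HIBD model libraries and 19.4, 16.9, 33.7 and 17.3 FPKM in normal libraries. Apart from HIBD model replicate 18 and normal replicate 11, which stood near 35 and 34 FPKM, Npy kept to a narrow band, in which the acupuncture libraries lay just below the normal range. The ratio of Sst to Npy was 1.93 in HIBD model replicate 18 and 3.91 in normal replicate 11, the 2 lowest of the 12.

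Vip had 19.8, 19.5, 19.8 and 20.8 FPKM in acupuncture libraries, 7.78, 15.8, 19.3 and 8.57 FPKM in HIBD model libraries and 14.7, 14.5, 17.2 and 7.92 FPKM in normal libraries. In FPKM the acupuncture libraries lay above every library of the other 2 groups, with HIBD model replicate 16 close to them. Of all genes, 1.17% lay so above the HIBD model and 6.62% above the normal libraries. Of its 4 transcript rows, ENSRNOT00000025477 held 90.2 ± 3.05% in acupuncture, 90.9 ± 4.02% in HIBD model and 86.9 ± 2.20% in normal libraries. Cck, the highest of the 8 by mean FPKM, had 126, 152, 251 and 203 FPKM in acupuncture libraries. It had 80.8, 188, 249.9 and 86.8 FPKM in HIBD model libraries and 147, 141, 216 and 96.6 FPKM in normal libraries. Its groups overlapped throughout, and its 3 lowest libraries were HIBD model replicates 2 and 18 and normal replicate 13, the same 3 in which Vip was lowest.

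The spread within groups differed from gene to gene and group to group. For Gad2 the SD was 7.60% of the mean in acupuncture, 60.4% in HIBD model and 40.9% in normal libraries. Over 6508 genes with a mean of at least 10 FPKM, the median SD was 11.4%, 14.5% and 8.73% of the mean in the same order. Vip was tightest in the acupuncture group, at 2.85%, against 43.6% in HIBD model and 29.3% in normal libraries. All 8 genes spread more than the median gene in the HIBD model and normal groups, whereas in the acupuncture group only Pvalb (18.0%) and Cck (30.3%) did. Whether the spread differed between groups was not tested.

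**Figure D2:**
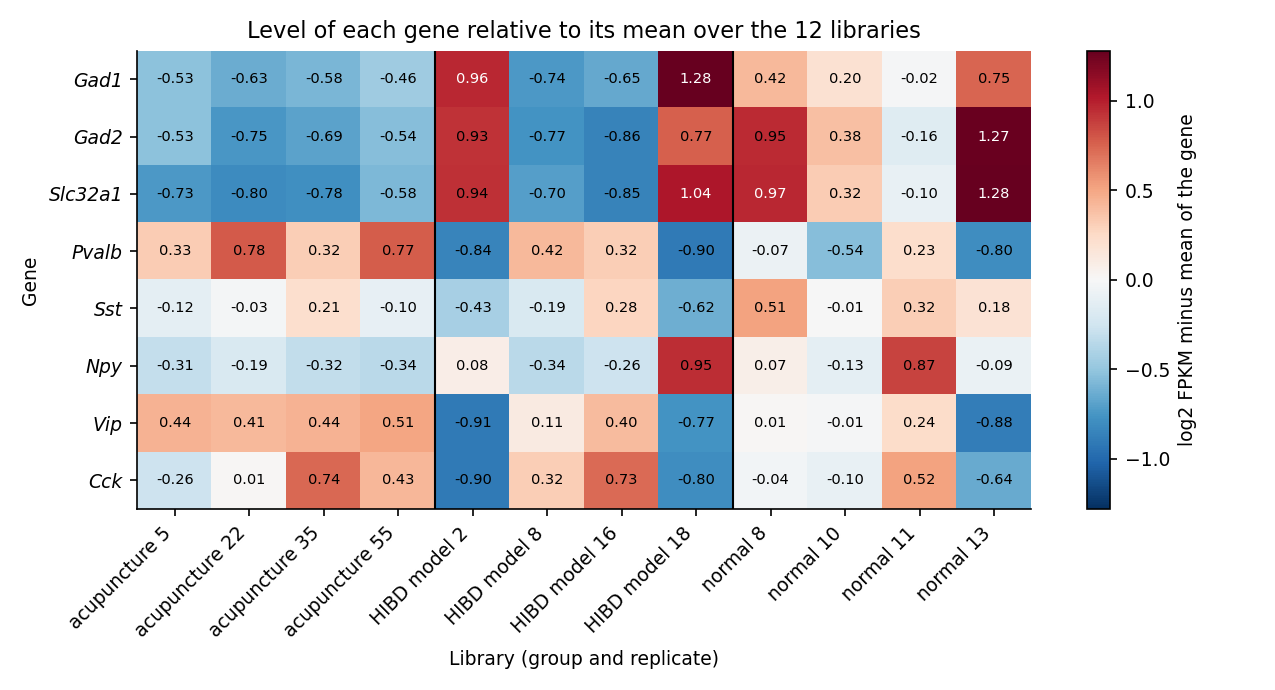
Level of each gene (rows) in each library (columns) on the log2 scale, relative to the gene's mean over the 12 libraries; red is above and blue below that mean, and lines divide acupuncture, HIBD model and normal libraries. Gad1, Gad2 and Slc32a1 are blue in all acupuncture libraries and in HIBD model replicates 8 and 16, where Pvalb and Vip are red.

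How the genes varied together was measured over the 12 libraries on log2(FPKM + 1), with permutation tests (two-sided, 100000 resamples) adjusted over the 28 pairs. Of the 28, 16 passed an adjusted p of 0.05 for Pearson's r, 7 with a positive and 9 with a negative sign, and 19 passed for Spearman's rho. What share of pairs among all genes would pass was not computed. Gad2 and Slc32a1 had the highest r, 0.99 (permutation p = 1e-05, the smallest these permutations can give, adjusted 0.00028), and a rho of 0.92 (permutation p = 9e-05). Without the 2 libraries farthest from the median of Gad2, r was 0.99. Gad1 followed Gad2 with r = 0.93 (permutation p = 0.00012, adjusted 0.00048) and rho = 0.92 (permutation p = 9e-05), and r was 0.98 without the 2 farthest libraries.

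Pvalb ran against Gad1, with r = -0.92 (permutation p = 6e-05, adjusted 0.000467), rho = -0.85 (permutation p = 0.00086) and r = -0.85 without the 2 farthest libraries. Against Gad2, Vip had r = -0.87 (permutation p = 0.00038, adjusted 0.00133) and rho = -0.68 (permutation p = 0.019), and r = -0.91 without the 2 farthest libraries. Cck had r = -0.78 against Gad2 (permutation p = 0.00477, adjusted 0.00954) and rho = -0.71 (permutation p = 0.0119), and r = -0.82 without the 2 farthest libraries. Pvalb and Vip rose and fell together, with r = 0.92 (permutation p = 3e-05, adjusted 0.00042), rho = 0.85 (permutation p = 0.00078) and r = 0.86 without the 2 farthest libraries. So did Vip and Cck, with r = 0.85 (permutation p = 0.00079, adjusted 0.00201), rho = 0.68 (permutation p = 0.0179) and r = 0.73 without the 2 farthest libraries. All 9 negative pairs joined a GABA gene with Pvalb, Vip or Cck.

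Sst was not correlated with any other gene of the 8 at an adjusted p of 0.05, and its r with Npy was -0.20 (permutation p = 0.525, adjusted 0.565; rho = 0.06, permutation p = 0.853). Without the 2 farthest libraries, HIBD model replicate 18 and normal replicate 8, r was 0.31. Npy passed for r only with Gad1, with r = 0.64 (permutation p = 0.0224, adjusted 0.0392; rho = 0.80, permutation p = 0.00275), and r was 0.42 without the 2 farthest, HIBD model replicates 2 and 18. By rho, Npy also passed with Gad2 (0.70) and Slc32a1 (0.65), and with Pvalb (-0.79) and Vip (-0.68), each with a permutation adjusted p under 0.05. In CPM instead of FPKM, Npy passed with none of the other 7 genes by r or by rho (permutation adjusted p for rho of 0.14 with Gad1, 0.384 with Gad2, 0.209 with Slc32a1, 0.199 with Pvalb and 0.265 with Vip), and 15 of the 28 pairs passed by rho. On that scale the Npy and Gad1 pair had r = 0.51 (permutation adjusted p = 0.0996), and Sst and Cck passed (r = 0.72, permutation adjusted p = 0.0148). With the group means removed and libraries permuted only within groups, r stayed at 0.99 for Gad2 and Slc32a1 and at 0.94 for Gad1 and Gad2, and was -0.92 for Gad2 and Vip. By r, 3 of the 28 pairs then passed (permutation adjusted p = 0.0236 for each): Gad1 with Slc32a1, Gad2 with Slc32a1, and Vip with Cck. All 3 were positive, and 0 negative pairs passed. Sst then had r = 0.76 with Cck, 0.66 with Vip and 0.65 with Pvalb. Its r was -0.67 with Gad1, -0.56 with Gad2 and -0.58 with Slc32a1. None of these Sst pairs passed (permutation adjusted p from 0.0623 to 0.255). By rho only Gad1 with Slc32a1 passed (permutation adjusted p = 0.0216), and Gad2 with Slc32a1 and Vip with Cck had 0.0568 and 0.0829.

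**Figure D3:**
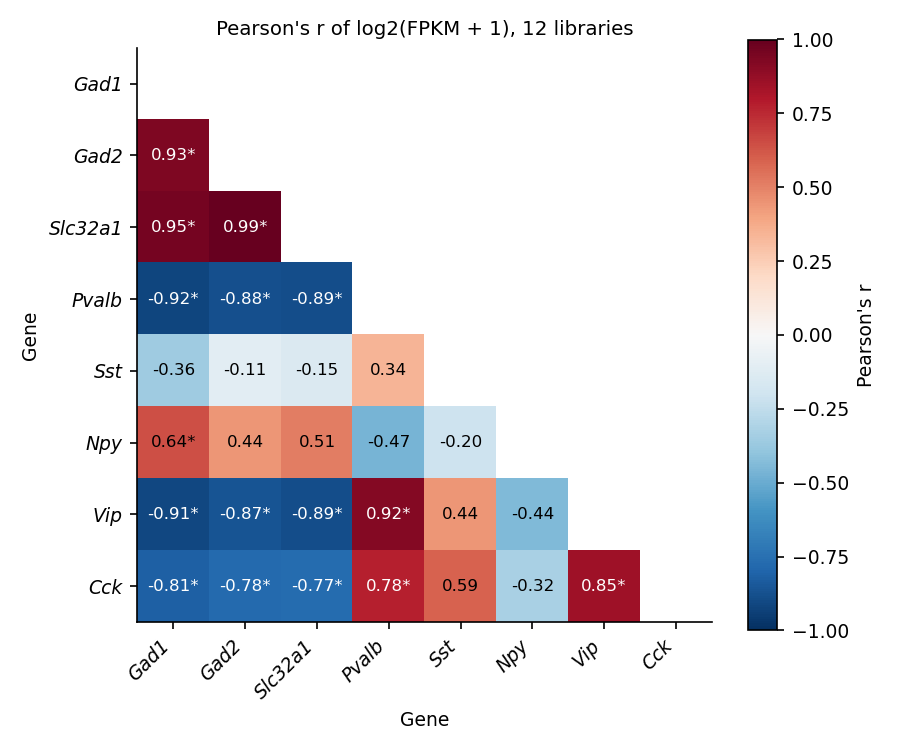
Pearson's r of log2(FPKM + 1) for each of the 28 pairs of genes over the 12 libraries; an asterisk marks a permutation p under 0.05 after adjustment over the pairs. The block of Gad1, Gad2 and Slc32a1 is red (r from 0.93 to 0.99), and its pairs with Pvalb, Vip and Cck are blue (r from -0.92 to -0.77).

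**Figure D4:**
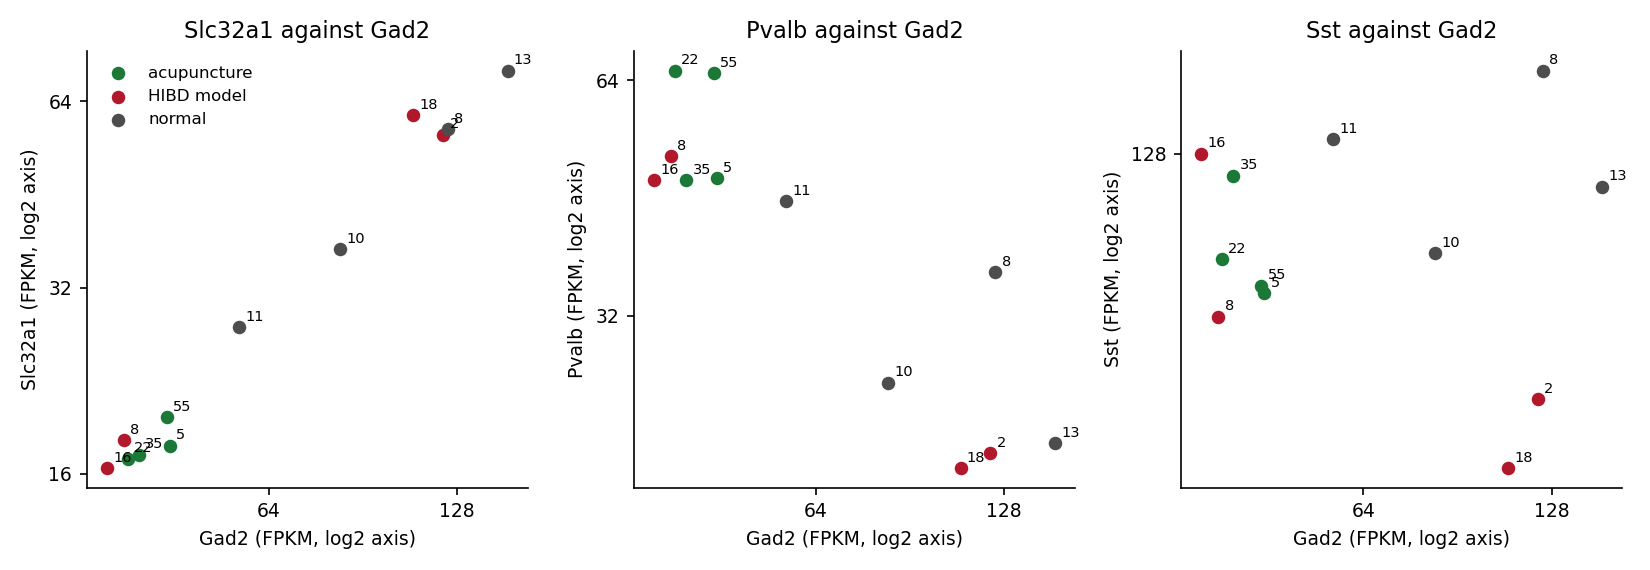
FPKM of Slc32a1, Pvalb and Sst against that of Gad2, with both axes on a log2 scale; each point is a library, coloured by group and marked with its replicate number. Slc32a1 rises with Gad2 along a line, Pvalb falls with it, and Sst shows no such order.

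Other genes with this pattern were sought among the 8469 Ensembl genes that averaged 3 or more in log2 CPM. Against the mean profile of Gad1, Gad2 and Slc32a1 over the 12 libraries, 151 of these (1.78%) had r of at least 0.9 and 205 (2.42%) had r of -0.9 or lower, given as a description. The closest were ENSRNOG00000038686 (r = 0.98) and ENSRNOG00000020485 (r = 0.98), which the files do not pair with a name. ENSRNOG00000038686 had 10.7, 6.32, 7.48 and 8.56 FPKM in acupuncture libraries, 29.9, 8.38, 6.72 and 39.0 FPKM in HIBD model libraries and 26.9, 18.9, 13.6 and 45.3 FPKM in normal libraries. Pvalb, Vip and Cck each had more genes with r of at least 0.9 (253, 239 and 327) than with -0.9 or lower (69, 39 and 37). For Sst there were 19 and 5 such genes and for Npy 0 and 0, so the profile of Npy was the least shared.

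Some facts of the libraries were set beside the GABA genes inside the HIBD model group. The total estimated count was 890562476 and 1090316733 in replicates 2 and 18, against 897597900 and 899545516 in replicates 8 and 16; what these totals say of depth in reads is unknown. Loci named by the authors' transcript assembler took 1.43% and 1.79% of the counts in replicates 2 and 18, and 2.02% and 2.35% in replicates 8 and 16. The TMM scaling factor was 1.13 and 1.07 in replicates 2 and 18, and 0.947 and 0.945 in replicates 8 and 16. A surrogate variable, computed from all genes with the group in the model, was 0.335 and 0.302 in replicates 2 and 18 and -0.266 and -0.471 in replicates 8 and 16. It was negative in all 4 acupuncture libraries (-0.343 to -0.134) and positive in all 4 normal libraries (0.042 to 0.455). Log2 fold changes with this variable as covariate, or without TMM factors, stand beside the comparisons; the part of the assembled loci was not tested. Marker genes of other cell types or brain regions are not paired with identifiers in the files and were not analysed here. Whether the dissected tissue was alike in all 12 libraries, on which the meaning of the GABA gene levels and of the split between HIBD model replicates 2 and 18 and replicates 8 and 16 depends, was therefore not tested.

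What the injury model changed was asked by setting the HIBD model against normal rats. The ranges of all 8 genes overlapped between the groups, beside 12.9% of all genes whose ranges did not, and Gad1 averaged 115 ± 75.9 FPKM in HIBD model and 105 ± 24.2 FPKM in normal libraries (SD, n = 4 each). Gad2 averaged 75.9 ± 45.8 and Sst 92.0 ± 26.0 FPKM in HIBD model libraries, against 105 ± 42.9 and 127 ± 19.4 FPKM in normal libraries. Sst, at log2 fold change -0.34 ± 0.23 (SE; quasi-likelihood test of edgeR, adjusted p = 0.444), had the smallest p of the 8. That value was -0.19 without HIBD model replicate 18, -0.60 without HIBD model replicate 16 and -0.69 with the surrogate variable as covariate (edgeR, adjusted p = 0.676, 0.209 and 0.125). In edgeR 0 of the 8 passed an adjusted p of 0.05, beside 0.0968% of the 27885 genes tested, and 0 passed an unadjusted p of 0.05, beside 22.4% of all genes. DESeq2 and limma-voom also called 0 of the 8, beside 14.1% and 0.0179% of the genes each tested. The fitted change was positive for 5 of the 8, and the median over the 8 was 0.05, against 0.01 over all genes tested. For Gad1 the sign depended on the fit, at 0.17 (SE 0.36, edgeR adjusted p = 0.837), which compares means, and -0.02 in limma-voom, which compares means of logs (adjusted p = 0.986).

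Acupuncture was set against the HIBD model to ask what differed after the treatment. Gad1 averaged 56.0 ± 2.94 FPKM in acupuncture and 115 ± 75.9 FPKM in HIBD model libraries, log2 fold change -0.94 ± 0.36 (SE; edgeR, adjusted p = 0.907). Slc32a1 averaged 17.9 ± 1.29 FPKM in acupuncture and 38.0 ± 24.0 FPKM in HIBD model libraries, log2 fold change -0.98 ± 0.40 (SE; edgeR, adjusted p = 0.909). In both genes HIBD model replicates 2 and 18 stood far above the acupuncture range, and replicates 8 and 16 at or near it. Leaving out single replicates, the log2 fold change of Gad1 ran from -1.17 (without HIBD model replicate 8) to -0.59 (without HIBD model replicate 18). That of Gad2 ran from -0.98 (without HIBD model replicate 16) to -0.51 (without HIBD model replicate 2). With all libraries it was -0.77 ± 0.38 for Gad2 (SE, edgeR, adjusted p = 0.971). With the surrogate variable as covariate the log2 fold changes were smaller, at -0.38 for Gad1, -0.23 for Gad2 and -0.39 for Slc32a1 (edgeR, adjusted p = 0.9997 for each). That variable was computed from the same data, with these genes included. It divides HIBD model replicates 2 and 18 from 8 and 16 as these genes do, so that fit is no separate test. Scaled by library totals without TMM factors, the log2 fold changes were -1.06 for Gad1, -0.89 for Gad2 and -1.11 for Slc32a1 (edgeR, adjusted p from 0.857 to 0.88). In FPKM, Vip was the only one of the 8 whose groups did not overlap (higher in acupuncture, beside 1.17% of all genes). Its groups overlapped in CPM with TMM factors. There HIBD model replicate 16 had 11.34 CPM, against 10.75 to 10.97 CPM in the acupuncture libraries. The log2 fold change of Vip was 0.62 ± 0.35 (SE, edgeR, adjusted p = 0.995). In edgeR 0 of the 8 passed an adjusted p of 0.05, as did 0.0% of all genes, and 2, Gad1 and Slc32a1, were under an unadjusted p of 0.05 beside 5.31% of all genes. DESeq2 and limma-voom called 0 of the 8, beside 1.17% and 0.0% of the genes each tested. The median log2 fold change over the 8 was -0.11, against 0.00 over all genes.

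**Figure D5:**
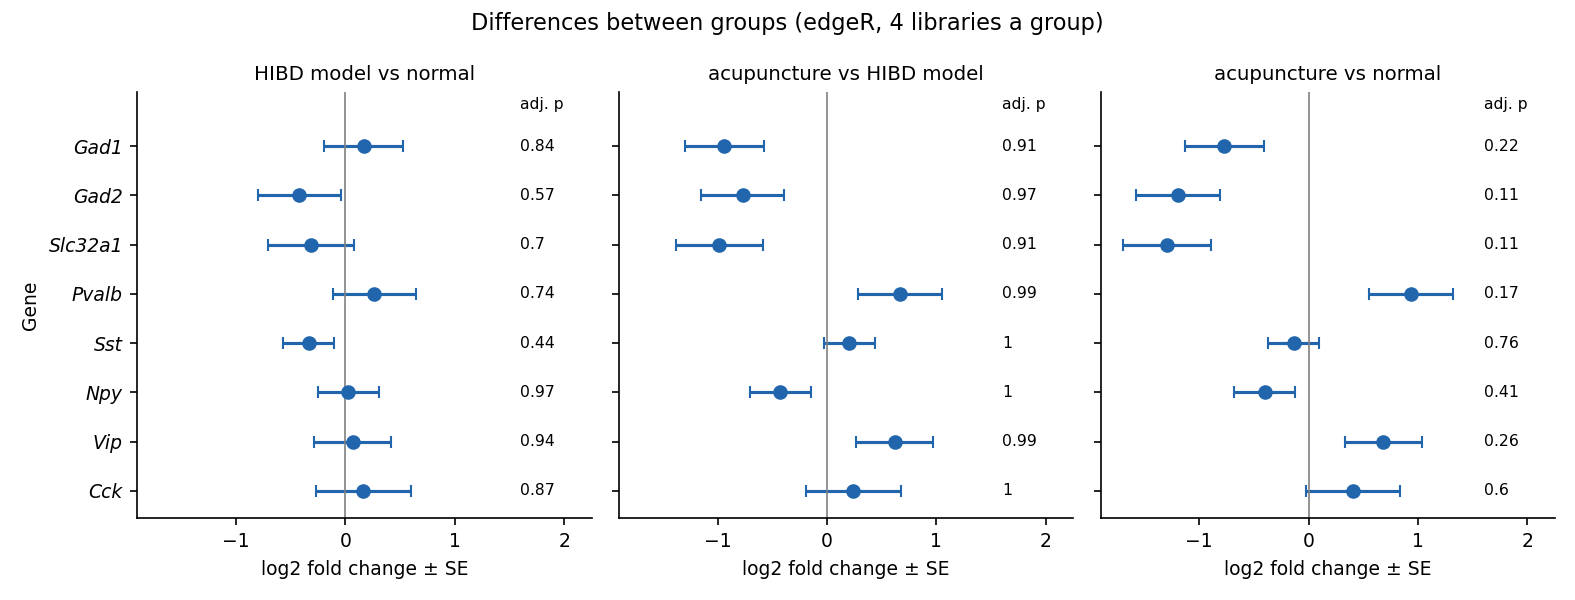
Fitted log2 fold change ± SE of each gene in the 3 comparisons, from edgeR with 4 libraries in each group, with the adjusted p over all 27885 genes tested at the right. In acupuncture against normal, Gad2 and Slc32a1 lie below -1 and Pvalb near 0.93, and no adjusted p is under 0.05.

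The treated group was last compared with normal rats, where Gad2 and Slc32a1 showed their largest fitted differences of the 3 comparisons. Gad2 averaged 41.6 ± 3.16 FPKM in acupuncture and 105 ± 42.9 FPKM in normal libraries, log2 fold change -1.19 ± 0.38 (SE; edgeR, adjusted p = 0.113). Slc32a1 averaged 17.9 ± 1.29 FPKM in acupuncture and 48.5 ± 20.0 FPKM in normal libraries, log2 fold change -1.30 ± 0.40 (SE; edgeR, adjusted p = 0.109). Gad1 gave log2 fold change -0.77 ± 0.36 (SE; edgeR, adjusted p = 0.216). All 3 were lower in FPKM in each of the 4 acupuncture libraries than in any normal library, as were 15.4% of all genes. None of the 3 passed over all genes. Pvalb averaged 56.7 ± 10.2 FPKM in acupuncture and 32.4 ± 10.2 FPKM in normal libraries, log2 fold change 0.93 ± 0.38 (SE; edgeR, adjusted p = 0.171). Vip averaged 20.0 ± 0.57 FPKM in acupuncture and 13.6 ± 3.98 FPKM in normal libraries, log2 fold change 0.68 ± 0.35 (SE; edgeR, adjusted p = 0.263). Npy averaged 15.1 ± 0.709 FPKM in acupuncture and 21.8 ± 7.98 FPKM in normal libraries, log2 fold change -0.40 ± 0.28 (SE; edgeR, adjusted p = 0.409) that was -0.11 without normal replicate 11. Sst and Cck, at -0.13 (SE 0.23) and 0.41 (SE 0.43), overlapped between the groups.

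In edgeR 0 of the 8 passed an adjusted p of 0.05 between acupuncture and normal, beside 0.0825% of all genes. At an unadjusted p of 0.05 there were 3 of the 8, Gad2, Slc32a1 and Pvalb, beside 24.5% of all genes tested. In FPKM, the groups did not overlap for 4 genes that were lower in acupuncture and 2 that were higher, beside 15.4% and 6.62% of all genes. In CPM with TMM factors, the Npy groups overlapped. Acupuncture replicate 22 had 8.12 CPM there, above normal replicates 10 (7.48 CPM) and 13 (7.38 CPM). The median log2 fold change over all genes was -0.05 on log2(FPKM + 1), against 0.02 in edgeR with TMM. DESeq2 called Gad2 and Slc32a1 lower (adjusted p = 0.0206 and 0.0159), beside 6.1% of genes called lower and 16.2% called in either direction by it, and limma-voom called 0 of the 8, beside 0.0323%. edgeR fitted to these 2 groups alone called Gad1 and Slc32a1 lower (adjusted p = 0.0377 and 0.0495), beside 1.73% of genes. With the HIBD model libraries left out of that fit, their spread no longer enters, and the SE of Gad1 was 0.138 in place of 0.36. With the surrogate variable as covariate, edgeR gave log2 fold changes of 0.13 for Gad1, -0.20 for Gad2, -0.25 for Slc32a1 and 0.12 for Pvalb (adjusted p from 0.608 to 0.879). That variable separates the acupuncture from the normal libraries itself, so it and the group cannot be told apart. Both comparisons that involve acupuncture use the same acupuncture libraries, and both with normal the same normal libraries.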

How the data were processed

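Total RNA from frozen prefrontal cortex was extracted with Trizol and made into Illumina libraries with a NEBNext kit, per the labels' protocols. The submitters' processing notes name the build Rnor_6.0 and HTSeq 0.6.0, without saying what each was used for; aligner, strand setting and annotation version: not given in the sources used here. Deposited by the authors were estimated counts per transcript (78025 rows, called read counts by them) and FPKM values per sample in the same row order, with gene identifiers. The unit of these values was taken as FPKM. Each deposited estimated count was this value times a factor of its row and of its library. The median deviation from that was 0.0011% over 12003 rows above 2000 in every library, against 18.1% with rows shuffled. This shows that the rows pair. It cannot settle the unit, because any unit scaled by row and by library would give the same. Totals ran from 714904584 to 1090316733 per library. What 1 unit is worth in reads, and hence the depth and its counting error, is unknown.

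Transcript rows were summed per gene. The deposited estimated counts are whole numbers. They entered edgeR 4.0.16 (quasi-likelihood, TMM, filterByExpr by group, all 12 libraries, no covariate, R 4.3.3), adjusted by Benjamini-Hochberg over 27885 genes. All 8 genes passed the filter. SEs were derived from the F statistic. Alternatives used DESeq2 1.42.0, limma 3.58.1 and sva 3.50.0, and the edgeR fit was tested on simulated data. The simulation gave all genes and groups the same dispersion, so it does not cover the unequal spread of the GABA genes between groups. The members and gene lists were chosen with earlier results of these data known. All 8 are named, and similar genes by highest r, at most 2 by identifier. The files give identifiers without symbols; the 8 symbols came with the choice of identifiers, and the RefSeq table (GRCr8) held 0 Ensembl identifiers to check them. The lists of other interneuron, GABA receptor, peptide receptor and cell type genes, set by symbol, could therefore not be matched and were not analysed here. Protein sequences and circular RNA were not used here.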

Additional observations from a re-analysis of the deposited data

Results flagged for a closer look

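Npy in normal replicate 11 stood at 33.7 FPKM, against 16.9 to 19.4 FPKM in the other 3 normal libraries, a gap of 0.85 of the group's range. This was the only one of 24 gene and group sets in which a single library lay so far from the rest, and chance alone gives about 1 in 20 such sets.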

How the results depend on the processing

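Under all 24 alternatives 0 of the 8 passed in HIBD model against normal, and likewise in acupuncture against HIBD model. Between acupuncture and normal, 22 of 24 gave 0 and 2 gave 2 (DESeq2, and edgeR with 2 groups only); leaving out single replicates gave 0 throughout. Over all genes, DESeq2 called 4076, 340 and 4689 in HIBD model against normal, acupuncture against HIBD model and acupuncture against normal, limma-voom 5, 0 and 9, and edgeR 27, 0 and 23. Of the 28 pairs of genes, 16 passed by r as measured and 3 with group means removed; by rho 19 passed as measured, 15 in log2 CPM and 1 with group means removed. Signs turned mainly between HIBD model and normal, where the cause was not tested. In limma-voom the log2 fold change there was -0.0158 for Gad1, -0.0547 for Vip and -0.0081 for Cck. On log2(FPKM + 1) and log2(FPKM + 0.1) it was -0.12 and -0.12 for Gad1, -0.0691 and -0.0736 for Npy, -0.12 and -0.13 for Vip, and -0.10 and -0.10 for Cck. With 1 surrogate variable it was 0.0267 for Gad2, 0.14 for Slc32a1, -0.38 for Pvalb, -0.55 for Vip and -0.64 for Cck. With that variable Cck was also -0.0065 between acupuncture and HIBD model, and between acupuncture and normal Gad1 was 0.13, Vip -0.13 and Cck -0.65. Leaving out single replicates, the log2 fold change between HIBD model and normal ranged from -0.19 to 0.40 for Gad1, -0.0043 to 0.48 for Pvalb, -0.27 to 0.34 for Npy, -0.26 to 0.27 for Vip, -0.25 to 0.40 for Cck and -0.60 to -0.19 for Sst. No paired analysis was possible because the groups share only replicate number 8, in normal and HIBD model.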
